A study of Homo sapiens with 8 samples.

Results

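The genes described here encode the enzymes that write, erase and read marks on chromatin and the ATPase complexes that move nucleosomes: 43 genes, of 19974 protein-coding genes, chosen by name with earlier results of these data known; the rule itself uses no measured value. They fall into 10 role groups, namely the H3K4 methyltransferases, the H3K36 methyltransferases, Polycomb repressive complex 2 (PRC2), the histone demethylases, the histone acetyltransferases, the class I histone deacetylases, the DNA methyltransferases, the TET dioxygenases, the BET readers and the SWI/SNF remodelers. A peak was assigned to a gene when it overlapped the gene body or the 5 kb on either side, called the locus below. A peak that overlapped the 1 kb on either side of an annotated end of the gene is called a gene-end peak. By this rule 204 of 36742 peaks in the list labelled ATRA, 223 of 54279 with POM, 233 of 47193 with ATRA+POM and 216 of 50946 with DMSO belonged to these genes.

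The peaks come from chromatin immunoprecipitation with sequencing in OPM-2, an established human multiple myeloma cell line. Cells were exposed for 72 h to ATRA at 1 µM (all-trans retinoic acid, a vitamin A derivative that activates nuclear retinoic acid receptors), to 1 µM pomalidomide (POM, a drug that redirects the cereblon ubiquitin ligase to new substrates), to both at 1 µM each, or to the solvent DMSO. Each treatment had 1 immunoprecipitated library and 1 input library, and the authors called peaks once per treatment. The labels name no antibody, so the data show where an unnamed target was enriched and not the expression of the genes; the series describes the peaks as transcription factor binding.

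Writers such as the KMT2 and SETD1 methyltransferases place methyl groups on histone tails, acetyltransferases such as EP300 and CREBBP place acetyl groups, and demethylases and deacetylases take them off. PRC2 places the repressive H3K27 methyl mark through EZH2 or EZH1, and KDM6B removes it. Genes of these classes are recurrently altered in multiple myeloma, and H3K36 methylation is raised in cells with the t(4;14) translocation, which OPM-2 carries.

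No treatment was replicated, so a peak called in one list and not in another has no replicate check, and no p-value was computed. Fold enrichment is as the authors gave it for each library, was not scaled between libraries, and is printed side by side without a direction. The reads at a summit were inferred from the fold enrichment and the p-value. Their median was 23 in the list labelled ATRA, 72 with POM, 65 with ATRA+POM and 78 with DMSO, and the inferred depth relative to DMSO was 0.133, 0.927 and 0.902 for ATRA, POM and ATRA+POM. The ATRA-labelled list stands apart by this depth. In these bulk samples fewer cells with a signal and less signal per cell cannot be told apart. All 8 plasma cell marker genes had a gene-end peak in every list, and none of the 6 myeloid and none of the 5 epithelial markers did in any. Of the 6 T cell markers, 2, 3, 2 and 2 had one in the ATRA-labelled, POM, ATRA+POM and DMSO lists, and of the 4 fibroblast markers 0, 0, 1 and 0.

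Of the 43 genes, 40 were found in the RefSeq promoter table (GRCh38.p14), which gives 250 bases before and 50 after an annotated start. SETD1B, NSD3 and KAT6A have no entry in it. Of these windows 6 are shown, each 5′ to 3′ on the strand of its gene, with matches to the GC box GGGCGG, to CCAAT and to the nuclear receptor hexamer AGGTCA in capitals on either strand; GC boxes may overlap one another. CREBBP (chr16:3880664-3880963, minus strand), KDM6B (chr17:7833967-7834266, plus strand) and HDAC3 (chr5:141636800-141637099, minus strand) are shown because the peak at their start was called in some lists only.
CREBBP: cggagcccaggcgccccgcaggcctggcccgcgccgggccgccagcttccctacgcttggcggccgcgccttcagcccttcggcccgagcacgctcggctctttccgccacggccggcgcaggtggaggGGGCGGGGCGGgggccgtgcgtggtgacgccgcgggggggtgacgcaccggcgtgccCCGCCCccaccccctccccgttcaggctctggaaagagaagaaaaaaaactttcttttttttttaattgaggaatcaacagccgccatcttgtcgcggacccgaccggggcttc
KDM6B: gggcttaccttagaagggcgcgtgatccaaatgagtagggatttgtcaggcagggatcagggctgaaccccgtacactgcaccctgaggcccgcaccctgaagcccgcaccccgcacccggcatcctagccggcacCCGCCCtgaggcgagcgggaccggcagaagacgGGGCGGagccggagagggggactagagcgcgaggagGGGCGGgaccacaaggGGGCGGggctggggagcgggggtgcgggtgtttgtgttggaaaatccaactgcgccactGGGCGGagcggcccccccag
HDAC3: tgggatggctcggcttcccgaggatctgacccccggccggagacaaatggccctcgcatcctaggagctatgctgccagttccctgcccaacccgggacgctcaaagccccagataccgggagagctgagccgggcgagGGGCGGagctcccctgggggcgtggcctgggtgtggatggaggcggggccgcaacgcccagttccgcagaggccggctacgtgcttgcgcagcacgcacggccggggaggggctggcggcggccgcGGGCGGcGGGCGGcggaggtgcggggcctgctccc
EZH2 (chr7:148884242-148884541, minus strand) and EED (chr11:86244503-86244802, plus strand) encode subunits of one complex, and both had a gene-end peak in all lists. BRD2 (chr6:32968344-32968643, plus strand) is the member without a peak in any list and the only one of the 40 whose window holds AGGTCA.
EZH2: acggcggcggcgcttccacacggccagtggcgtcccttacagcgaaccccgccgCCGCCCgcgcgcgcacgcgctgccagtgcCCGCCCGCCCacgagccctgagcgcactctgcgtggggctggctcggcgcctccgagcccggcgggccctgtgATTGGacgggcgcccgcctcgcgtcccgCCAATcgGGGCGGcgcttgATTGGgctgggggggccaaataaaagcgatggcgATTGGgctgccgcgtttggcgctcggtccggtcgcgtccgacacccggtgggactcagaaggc
EED: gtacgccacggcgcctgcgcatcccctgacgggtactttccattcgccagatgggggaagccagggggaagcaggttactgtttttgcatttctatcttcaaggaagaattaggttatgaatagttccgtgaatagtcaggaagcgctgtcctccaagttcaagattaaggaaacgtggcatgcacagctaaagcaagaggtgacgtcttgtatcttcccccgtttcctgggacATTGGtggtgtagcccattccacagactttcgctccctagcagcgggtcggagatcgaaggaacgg
BRD2: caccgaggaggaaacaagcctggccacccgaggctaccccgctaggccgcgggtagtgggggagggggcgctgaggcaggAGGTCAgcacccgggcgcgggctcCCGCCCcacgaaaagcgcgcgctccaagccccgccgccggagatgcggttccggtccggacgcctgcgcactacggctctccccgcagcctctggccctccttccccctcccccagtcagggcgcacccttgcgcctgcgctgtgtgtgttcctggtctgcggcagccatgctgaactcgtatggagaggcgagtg

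The windows of the chromatin genes had a median GC content of 69.2% and a median of 30 CpG dinucleotides, against 62.7% and 22 over all 15813 promoters of the table. The GC box was found in 67.5% of the member windows and 58.5% of all windows. CCAAT was found in 22.5% and 36.3%, AGGTCA in 2.5% and 11.7%, and the ETS motif CCGGAAG, absent from the windows shown, in 10.0% and 14.2%. Among the 7305 windows of the table overlapped by a peak in any list, the medians were 65.0% GC and 27 CpG dinucleotides. In those windows the GC box was found in 71.5%, CCAAT in 38.7%, AGGTCA in 9.21% and CCGGAAG in 24.4%. The member windows were not limited to those with a peak. A match is a run of letters and was not measured as a binding site. A peak overlapped the 300-base window in 14 of 40 members in the list labelled ATRA, 23 with POM, 17 with ATRA+POM and 26 with DMSO. Over all 15813 promoters of the table the shares overlapped were 30.3%, 40.5%, 30.4% and 45.0% in the same lists. Among the windows shown, that of CREBBP was overlapped with DMSO alone, that of KDM6B with POM and DMSO, that of EZH2 in every list but ATRA+POM, that of EED in all lists, and those of HDAC3 and BRD2 in none.

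Most of these genes carried a peak at an end whatever the treatment. A gene-end peak was called at 28 of 43 members (65.1%) in the list labelled ATRA, 32 (74.4%) with POM, 28 (65.1%) with ATRA+POM and 34 (79.1%) with DMSO. Over all protein-coding genes the shares were 40.0%, 47.9%, 41.3% and 48.8% in the same lists. In all 4 lists 26 members had one (60.5%, against 37.3% of all genes), and 28 did when the ATRA-labelled list was left out. In none of the lists 9 members had one (20.9%, against 49.0% of all genes): KDM2B, KDM4C, KDM5B, DNMT3A, DNMT3B, TET1, TET3, BRD2 and BRD3. For 4 of the 43 the promoter table places the start over 1 kb inside the annotated span, among them KDM4C (37.1 kb), KDM2B (1.26 kb) and TET3 (1.28 kb). These 3 had a peak within 1 kb of that start in every list, so their count of 0 rests on which end the annotation gives.

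**Figure D1:**
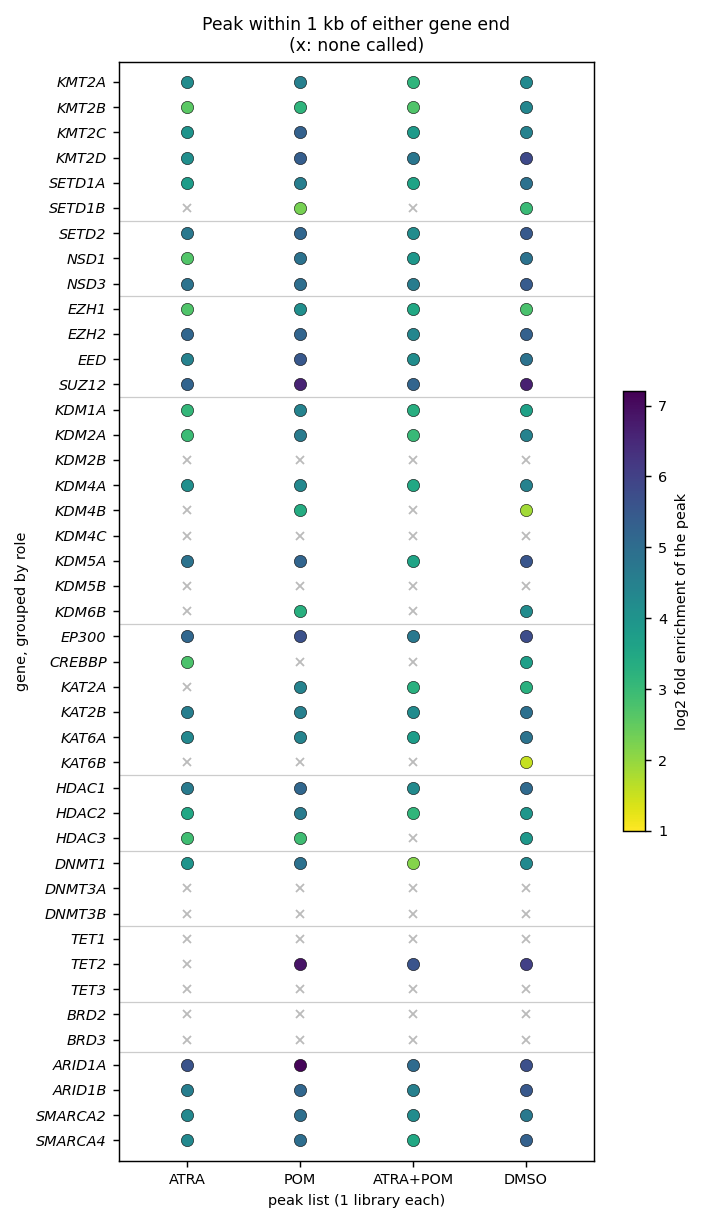
Strongest gene-end peak of each of the 43 genes (rows, grouped by role) in each of the 4 lists (columns). Colour gives the authors' log2 fold enrichment, which is not scaled between libraries, and a cross means that no gene-end peak was called. In all columns 26 genes have a filled point, and 9 genes have a cross in all columns.

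Gene-end peaks marked all 6 H3K4 methyltransferases in the POM and DMSO lists, and 5 had one in the list labelled ATRA and with ATRA+POM. KMT2A, the methyltransferase gene that is a common target of leukaemia translocations, showed the strongest peak of the group that differed between lists. The region lies 11.1 kb inside the gene (chr11:118447561-118449302). Its summit held 123 reads at a fold enrichment of 39.0 in the list labelled ATRA and 748 reads at 42.5 with DMSO, and no peak was called there with POM or with ATRA+POM. At the inferred depth of the libraries without it, the DMSO summit would correspond to 693 reads (POM) and 675 reads (ATRA+POM). The peaks around the KMT2A start were called in all lists: the region just upstream had a highest summit of 41 reads in the list labelled ATRA, 194 with POM, 81 with ATRA+POM and 228 with DMSO. The other KMT2A regions that differed were a pair of weak ones called with DMSO alone, at 33 reads each.

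KMT2C, which methylates H3K4 at enhancers, had a region 122 kb into the gene (chr7:152313627-152314174) with 58 summit reads in the list labelled ATRA, 54 with POM, none called with ATRA+POM and 341 with DMSO. Closer to its start, 99.6 kb into the gene (chr7:152336134-152336371), a region had 79 reads with POM and 180 with ATRA+POM and was called in neither other list. A neighbour of the first, 121 kb in, was called for ATRA (33 reads) and DMSO (91 reads) and in neither POM-containing list. KMT2B, a paralogue of KMT2A, had 4, 6, 5 and 3 peaks at its locus in the ATRA-labelled, POM, ATRA+POM and DMSO lists. Its region 22.8 kb downstream of the start also overlaps the end of IGFLR1, and those at its start lie within 1 kb of ZBTB32, so these peaks cannot be given to KMT2B alone. KMT2D had 5, 7, 5 and 6 peaks and SETD1A 2, 2, 3 and 2, each with a start region called in all lists.

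SETD1B, a catalytic subunit of a COMPASS complex, held a region of 9836 bp (chr12:121794456-121804291) that was a single peak with DMSO. Its highest summit had 338 reads at a fold enrichment of 94.8 in the list labelled ATRA, 1749 at 142 with POM, 903 at 69.9 with ATRA+POM and 2288 at 114 with DMSO. The same stretch was cut into 6 peaks for ATRA, 5 for POM and 9 for ATRA+POM, compared with 1 for DMSO. Of the 16 peaks at the SETD1B locus with ATRA+POM 9 lay in this stretch, against 1 of 8 with DMSO, and the covered length of the locus was 10516 bp with ATRA+POM and 14668 bp with DMSO. The weaker gene-end peaks of SETD1B were called with POM (20 reads) and DMSO (37 and 47 reads) and in no other list. Part of the long region lies within 1 kb of the end of RHOF.

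The 3 H3K36 methyltransferases had gene-end peaks in every list. SETD2, the enzyme that trimethylates H3K36 along transcribed genes, had its strongest summit 21.5 kb inside the gene, with 79 reads in the list labelled ATRA, 887 with POM, 480 with ATRA+POM and 474 with DMSO. NSD1, a dimethyltransferase, was covered 159 kb into the gene (chr5:177290596-177291438) with 80 reads at a fold enrichment of 40.4 in the list labelled ATRA, 523 at 93.5 with POM, 375 at 35.6 with ATRA+POM and 609 at 79.1 with DMSO. A region 165 kb into NSD1 was called with POM (49 reads) and ATRA+POM (24 reads) and not in the other lists. The gene-end peaks of NSD1 lie at its 3′ side in a 5577-bp region that also overlaps the end of RAB24, and no peak lay within 1 kb of its annotated start. NSD3, a relative of NSD1, had 11, 7, 9 and 9 peaks in the ATRA-labelled, POM, ATRA+POM and DMSO lists. An inner region of NSD3 was called for ATRA (14 reads) and DMSO (115 reads) and with neither POM-containing treatment.

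All 4 PRC2 genes had a gene-end peak in every list. The start region of EZH2, the catalytic subunit, had 80 reads at a fold enrichment of 36.3 in the list labelled ATRA, 354 at 36.8 with POM, 166 at 20.4 with ATRA+POM and 503 at 39.6 with DMSO. These summits lie inside the gene, and the DMSO peak spans 3680 bp across the start. Upstream of the start, separate peaks were called in the list labelled ATRA (21 and 12 reads) and with POM (87 reads). None was called there with ATRA+POM. The EZH2 locus held 3 peaks in the list labelled ATRA, 8 with POM, 10 with ATRA+POM and 4 with DMSO, and 4 regions were called with ATRA+POM alone. The strongest of these, 43.2 kb into the gene (chr7:148840281-148841060), had 146 reads at a fold enrichment of 8.68. A neighbouring region 44.7 kb into the gene was called with POM (96 reads), ATRA+POM (115 reads) and DMSO (66 reads), and one at 61.4 kb with POM (124 reads), ATRA+POM (73 reads) and DMSO (20 reads). The covered length of the EZH2 locus was 2262 bp in the list labelled ATRA, 5075 bp with POM, 4533 bp with ATRA+POM and 4958 bp with DMSO.

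EZH1, the alternative catalytic subunit, had a single region, at its start, with 12, 102, 51 and 64 reads in the ATRA-labelled, POM, ATRA+POM and DMSO lists. EED, the subunit that binds the H3K27 methyl mark, had 2 regions, both at its start and called in every list, the stronger with 47, 352, 149 and 288 reads. SUZ12, a scaffold subunit, had the highest fold enrichment of the 4 at a region upstream of its start, with 61 reads at 37.2 in the list labelled ATRA, 336 at 98.2 with POM, 130 at 36.6 with ATRA+POM and 439 at 100 with DMSO. A second SUZ12 region, at the start, had 10 reads in the list labelled ATRA, 18 with POM, none called with ATRA+POM and 68 with DMSO.

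Among the 9 histone demethylases, gene-end peaks were called at 4 in the list labelled ATRA, 6 with POM, 4 with ATRA+POM and 6 with DMSO. The members that differed were KDM4B and KDM6B, both called with POM and DMSO and in neither other list. KDM4B, an H3K9 demethylase, was weak throughout: its start region had 37 reads at a fold enrichment of 10.4 with POM and 24 at 3.64 with DMSO, and its 184-kb span held no peak in the other 2 lists. KDM6B, which removes H3K27 methylation, had a peak just upstream of its start with 80 reads at 9.74 with POM and 90 at 11.8 with DMSO. Its region 0.82 kb downstream was called in the list labelled ATRA (15 reads), with POM (22 reads) and with DMSO (83 reads), but not with ATRA+POM. So was a region 4.24 kb downstream, with 21, 28 and 108 reads in the same 3 lists. The ATRA-labelled peak of the region at 0.82 kb begins past the 1-kb window, so KDM6B was counted as without a gene-end peak in that list although the region was called. The region 1.57 kb downstream, in contrast, was called in all lists, with 42, 212, 75 and 180 reads for ATRA, POM, ATRA+POM and DMSO. The peak just upstream of its start lies within 1 kb of DNAH2, and the strongest peaks of the locus lie past its 3′ end and within 1 kb of the end of CYB5D1.

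KDM4C, a paralogue of KDM4B, had a start region called in every list, with 121 reads at 45.7 in the list labelled ATRA, 568 at 51.8 with POM, 335 at 34.4 with ATRA+POM and 807 at 63.4 with DMSO. Between 172 and 180 kb into the gene, 3 regions were called with ATRA+POM alone (30 to 70 reads), beside one called with ATRA+POM (121 reads) and DMSO (61 reads). KDM5B, an H3K4 demethylase, had no peak within 1 kb of its start in any list. Its region 12.4 kb into the gene had 125 reads with POM, 71 with ATRA+POM and 158 with DMSO and was not called in the list labelled ATRA, where the DMSO summit corresponds to 21.0 reads by depth. KDM2A, an H3K36 demethylase, held 5, 9, 5 and 9 peaks in the ATRA-labelled, POM, ATRA+POM and DMSO lists, and its peak directly at the start was called with POM (42 reads) and DMSO (47 reads) only. KDM1A (the H3K4 demethylase LSD1), KDM4A and KDM5A had a start peak in every list.

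The gene-end peaks of the histone acetyltransferases differed between lists at CREBBP, KAT6B and KAT2A. A gene-end peak was present at all 6 with DMSO and at 4 in each of the other lists. CREBBP, the paralogue of EP300, had 3 peaks around its start with DMSO, with 26, 46 and 25 reads. The middle one (chr16:3880118-3880748) was also called in the list labelled ATRA, with 8 reads at a fold enrichment of 6.70 against 46 at 13.3 with DMSO, and none of the 3 was called with POM or ATRA+POM. In those 2 lists a peak was called 23.8 kb into CREBBP (chr16:3856708-3856961), with 49 reads at 5.18 with POM and 66 at 10.2 with ATRA+POM. EP300, by contrast, had its start region in all lists, with 63 reads at 35.3, 217 at 50.4, 120 at 26.5 and 379 at 53.8 for ATRA, POM, ATRA+POM and DMSO.

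KAT6B, a MYST-family acetyltransferase, held the strongest region at these loci that was called with the POM-containing treatments alone. It lies 72.3 kb into the gene (chr10:74897575-74898781) and had 336 reads at a fold enrichment of 20.7 with POM and 363 at 31.9 with ATRA+POM. A second such region, 84.3 kb into the gene, had 131 reads with POM and 75 with ATRA+POM. Neither was called in the list labelled ATRA or with DMSO. The gene-end peaks of KAT6B were called with DMSO alone (28 and 60 reads, fold enrichments of 4.11 and 2.92), while a region 1.18 kb downstream of the start was called in all lists, with 27, 73, 63 and 219 reads for ATRA, POM, ATRA+POM and DMSO. KAT2A, also known as GCN5, had no peak at its locus in the list labelled ATRA and 3 in each other list, the strongest with 95 reads with POM, 47 with ATRA+POM and 97 with DMSO. That peak sits at the 3′ end of KAT2A, within 1 kb of the end of DHX58. KAT2B, the paralogue PCAF, had 11, 9, 10 and 10 peaks, and 8 of its 9 regions were called in every list. KAT6A, a paralogue of KAT6B, had 5, 6, 4 and 5 peaks.

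**Figure D2:**
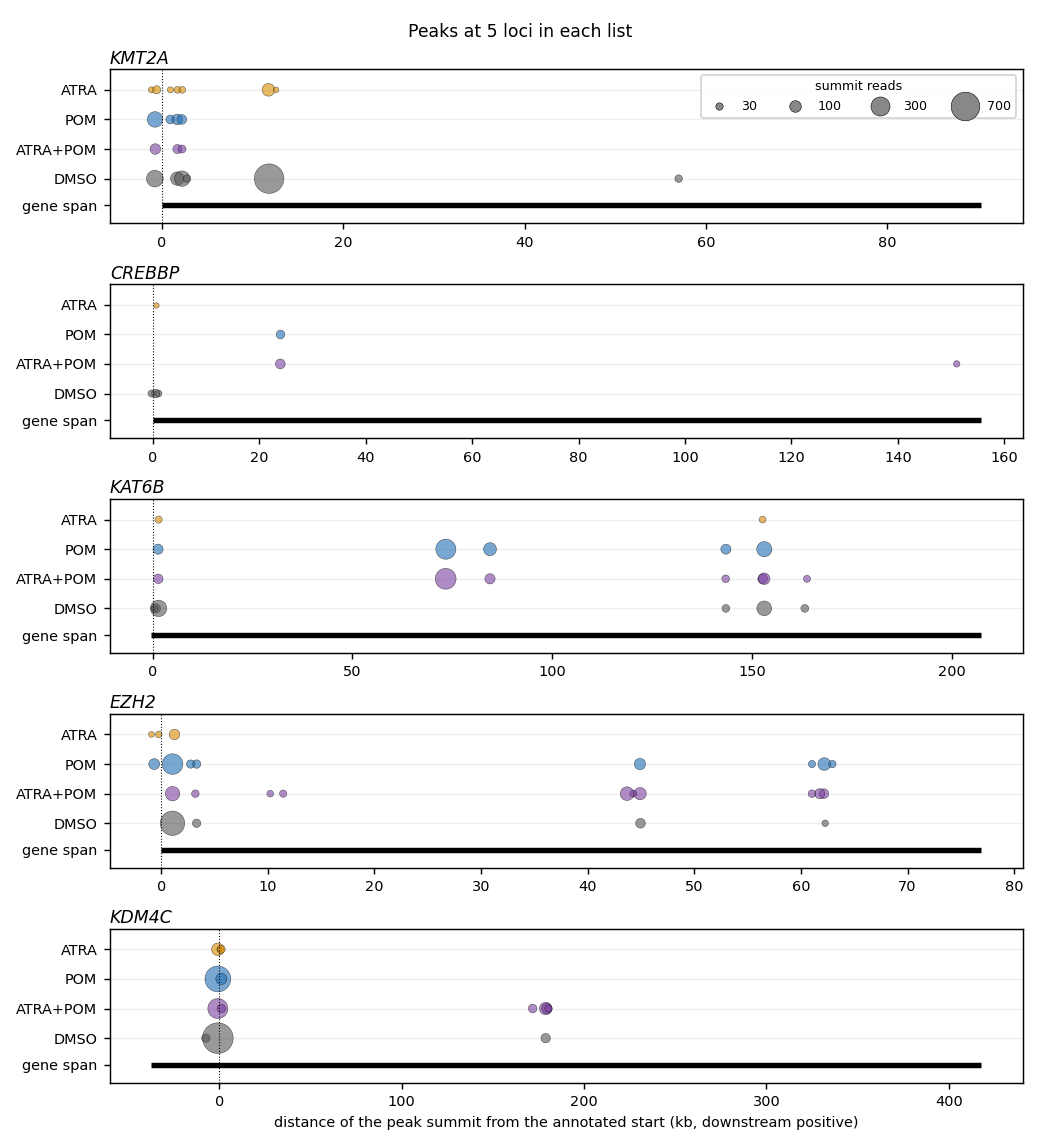
Peak summits at KMT2A, CREBBP, KAT6B, EZH2 and KDM4C, one row per list, by distance in kb from the annotated start. The area of a point follows the inferred summit reads and the black line is the annotated gene. The KMT2A region 11.1 kb downstream (123 reads with ATRA, 748 with DMSO) has no point in the POM and ATRA+POM rows, and the KAT6B region 72.3 kb downstream (336 reads with POM, 363 with ATRA+POM) has none in the ATRA and DMSO rows.

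The class I deacetylases are the catalytic subunits of the NuRD, Sin3, CoREST and NCoR corepressors. HDAC1 had a start region in every list, with 49 reads for ATRA, 212 for POM, 124 for ATRA+POM and 318 for DMSO, and HDAC2 likewise, with 15, 163, 64 and 89. HDAC3, the deacetylase of NCoR, was the exception: its start peak (chr5:141636129-141636790) had 9 reads at a fold enrichment of 7.45 in the list labelled ATRA, 25 at 7.58 with POM and 52 at 14.9 with DMSO, and was not called with ATRA+POM. This peak also lies within 1 kb of the end of RELL2. The other peaks of the HDAC3 locus, called in all lists, lie within 1 kb of the end of DIAPH1.

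Of the DNA methyltransferases only DNMT1, the maintenance enzyme, had gene-end peaks, and it had them in every list; the region inside its start had 31, 128, 28 and 197 reads for ATRA, POM, ATRA+POM and DMSO. A region 25.7 kb into DNMT1 had 15, 239, 209 and 108 reads. DNMT3A, a de novo enzyme, had a single region, 46.7 kb into the gene, called in every list with 18, 121, 117 and 151 reads. DNMT3B, the other de novo enzyme, had a pair of weak peaks with POM alone (30 and 35 reads).

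The TET dioxygenases oxidise 5-methylcytosine. TET1 was covered far inside the gene: its strongest region, 64.5 kb from the start (chr10:68624871-68626954), had 213 reads at a fold enrichment of 58.2 in the list labelled ATRA, 1374 at 56.6 with POM, 654 at 32.5 with ATRA+POM and 1261 at 64.9 with DMSO. A region 6.89 kb into TET1 (chr10:68567224-68567751) was called with POM (152 reads, 22.7) and ATRA+POM (82 reads, 7.86) and not in the ATRA-labelled or DMSO lists. TET2 had a strong region 0.625 kb downstream of its start in every list, with 91 reads at 48.6, 576 at 117, 276 at 47.9 and 501 at 65.1 for ATRA, POM, ATRA+POM and DMSO. The ATRA-labelled peak within it begins past the 1-kb window, so the gene-end peak of TET2 was counted as missing there although the region was called. TET3 had 4, 5, 3 and 4 peaks, of which the weak one nearest its start was called with POM (24 reads) and DMSO (36 reads) only.

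The BET readers, which bind acetylated histones, were almost without peaks. BRD3 had 1 peak, with DMSO alone (23 reads), 7.47 kb into the gene. BRD2 had none in any list, and the nearest peak lay 345552, 588938, 589022 and 345463 bp away for ATRA, POM, ATRA+POM and DMSO. BRD2 lies in the class II part of the major histocompatibility complex on chromosome 6. A 5-Mb span around it held 3, 5, 2 and 6 peaks in these lists, against 217, 211, 207 and 221 in the 5 Mb before it, so the absence at BRD2 is shared with its neighbourhood. Chromosome 6 as a whole held 13.0, 18.4, 16.9 and 17.6 peaks per Mb in the same lists, so the 5 Mb before the span are denser in peaks than the chromosome. The lists also hold peaks on alternative contigs of chromosome 6, which were not used here.

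The SWI/SNF genes carried the most peaks of the role groups by count, but not per length of locus. Per 100 kb they held 5.95, 6.43, 6.54 and 6.54 in the ATRA-labelled, POM, ATRA+POM and DMSO lists. The class I deacetylases held 7.96, 8.76, 7.16 and 7.16. ARID1B, a subunit of the BAF complex, had 18, 25, 24 and 20 peaks over its 435-kb span in the ATRA-labelled, POM, ATRA+POM and DMSO lists, and ARID1A, its paralogue, had 16, 16, 18 and 20. The region just before the ARID1A start had 141 reads at a fold enrichment of 49.1, 1061 at 139, 512 at 33.4 and 788 at 51.7 in the same order. Inside ARID1B, a region 142 kb from the start (chr6:156918101-156919481) was called with POM (160 reads) and ATRA+POM (96 reads) alone, as was one at 135 kb (69 and 53 reads). One at 150 kb (chr6:156926122-156926715) was called in the list labelled ATRA (19 reads), with POM (157 reads) and with DMSO (103 reads) and not with ATRA+POM. SMARCA4, the ATPase BRG1, lacked a peak 18.3 kb into the gene with POM and ATRA+POM that had 18 reads in the list labelled ATRA and 102 with DMSO. Its start regions, and those of the second ATPase gene SMARCA2, were called in all lists.

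The ATRA-labelled list was set against DMSO. Its peaks are nearly a subset of the DMSO peaks at the lower inferred depth, and the effect of the retinoid, the depth and a fault of label or processing cannot be told apart in the counts of this comparison. No member had a gene-end peak in the list labelled ATRA and not with DMSO (over all genes without one with DMSO, 0.0685% did). In the other direction 6 of 34 did (17.6%, against 18.2% over all genes): KAT6B, SETD1B, KDM6B, KAT2A, KDM4B and TET2. With peaks of a fold enrichment of at least 10 the count was 8, of which KDM6B and TET2 were among these 6, and with windows of 3000 bp it was 4, of which SETD1B, KDM4B and KAT2A were. At the relative depth of ATRA the DMSO summits correspond to 7.98 reads at KAT6B, 6.25 at SETD1B, 12.0 at the KDM6B start, 12.9 at KAT2A and 3.19 at KDM4B, where the 10th percentile of ATRA-labelled summits was 11 reads. None of the 204 ATRA-labelled peaks at the loci lacked a DMSO counterpart (95% Wilson interval up to 1.85%; 0.299% over all gene loci). Of 216 DMSO peaks, 86 (39.8%, 33.5 to 46.5) lacked a counterpart in the list labelled ATRA, against 45.9%. The locus held more peaks for ATRA than for DMSO at 13 of 41 members (23.2% of all loci) and fewer at 16 (53.3%), with the largest rise at KDM6B (13 against 9) and the largest falls at ARID1A, KAT6B, KDM2A and KDM5B (each by 4 peaks). Covered length, a measure chosen after the counts were seen, was larger at 0 and smaller at 41 of 41 (0.221% and 99.8% of all loci).

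POM alone was set against DMSO at nearly matched depth. None of the 9 members without any gene-end peak with DMSO had one with POM (3.79% of all genes without one did). In the other direction 2 of 34 had one for DMSO but not for POM, KAT6B and CREBBP (5.88%, against 5.93%). Of the 223 POM peaks at the loci, 27 (12.1%, 8.46 to 17.0) lacked a counterpart in the DMSO list, against 23.9% over all gene loci. Of the 216 DMSO peaks, 48 (22.2%, 17.2 to 28.2) lacked a counterpart in the POM list, against 26.1%. By q value, the first POM peaks without a counterpart were those described at KAT6B, TET1 and ARID1B, and the DMSO peaks without one that ranked first by q value were at KMT2A (748 reads), NSD3 (144 reads) and SMARCA4 (102 reads). Peaks were more numerous with POM at 15 of 42 members (34.2% of all loci), led by ARID1B (25 against 20) and EZH2 (8 against 4), and fewer at 13 (32.0%), led by ARID1A (16 against 20). Covered length was larger with POM at 13 and smaller at 29 (37.2% and 62.7% of all loci).

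The combination was set against DMSO, against POM and against the ATRA-labelled list. None of the 9 members without any gene-end peak with DMSO had one with ATRA+POM (1.75% of all genes without one did). In the other direction 6 of 34 had one with DMSO and not with the combination: KAT6B, SETD1B, CREBBP, KDM6B, KDM4B and HDAC3 (17.6%, against 17.3%). With a fold enrichment of at least 10 the count was 8, with KDM6B, CREBBP and HDAC3 shared. Of the 233 ATRA+POM peaks at the loci, 28 (12.0%, 8.45 to 16.8) lacked a counterpart in the DMSO list, against 17.5%, and 81 DMSO peaks (37.5%, 31.3 to 44.1) lacked a counterpart in the ATRA+POM list, against 42.3%. More peaks were called with the combination than with DMSO at 18 of 41 members (31.1% of all loci) and fewer at 15 (45.5%). At none of those 18 members was the covered length larger. Over the 41 it was larger at DNMT1 alone, at 3956 bp with ATRA+POM and 3892 bp with DMSO, and smaller at 40 (13.1% and 86.9% of all loci).

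Between the combination and POM, 4 of 32 members had a gene-end peak with POM and not with ATRA+POM, namely SETD1B, KDM6B, KDM4B and HDAC3 (12.5%, against 14.5% over all genes). With a fold enrichment of at least 10 the count was 6, and KDM4B alone was shared. None of 11 had the reverse (0.653%). Of the ATRA+POM peaks 17 (7.3%, 4.6 to 11.4) lacked a counterpart in the POM list, against 7.69%, those first by q value being at EZH2 (146 reads), KDM4C (121 reads) and KMT2C (77 reads). Of the POM peaks 67 (30%, 24.4 to 36.4) lacked a counterpart in the ATRA+POM list, against 35.1%, those first by q value being at ARID1B (157 reads), EZH2 (87 reads) and NSD3 (88 reads). Peak numbers were higher with ATRA+POM at 19 of 41 members (26.0% of all loci) and lower at 14 (45.1%), with the largest rises at SETD1B (16 against 10) and KDM4C (6 against 2). Covered length was larger at 2 of the 41, CREBBP and KDM4C (7.58% of all loci), and smaller at 39 (92.4%).

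Between the combination and the ATRA-labelled list, 2 of 15 members had a gene-end peak with ATRA+POM and not with ATRA, KAT2A and TET2 (13.3%, against 6.6%), and CREBBP and HDAC3 had the reverse (2 of 28, 7.14%, against 6.59%). Of the ATRA+POM peaks 65 (27.9%, 22.5 to 34.0) lacked a counterpart in the list labelled ATRA, against 36.4%, and 34 ATRA-labelled peaks (16.7%, 12.2 to 22.4) lacked a counterpart in the ATRA+POM list, against 21.3%. The strongest of these 34 was the KMT2A peak with 123 reads, which at the depth of the combination corresponds to 834 reads. Peak numbers were higher with ATRA+POM at 18 of 39 members (41.7% of all loci) and lower at 10 (29.5%), with the largest rise at EZH2 (10 against 3) and the largest fall at KMT2A (3 against 7). Covered length was larger at 24 and smaller at 15 of the 39 (62.2% and 37.6% of all loci). The comparisons share libraries: DMSO stands in 3 of the 5 and ATRA+POM in 3. Peaks of one locus are not independent, and the intervals cover counting error only.

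Joining overlapping peaks across the lists gave 237 regions at these loci. In all 4 lists 102 (43.0%, 36.9 to 49.4) were called, against 33.9% of the regions at all gene loci, and 121 when the ATRA-labelled list was left out. At gene ends 44 of 73 member regions (60.3%, 48.8 to 70.7) were called in all lists, against 55.4%. Away from gene ends 58 of 164 (35.4%, 28.5 to 42.9) were, against 22.9%. The member set left out only regions at the ends of the member itself, and the comparison set those at the end of any gene. Member regions at the end of a neighbouring gene thus remain among the 164, so these shares are not like for like. Regions called in a single list numbered 0 for ATRA, 16 (6.75%) for POM, 14 (5.91%) for ATRA+POM and 40 (16.9%) for DMSO. At all gene loci the shares were 0.13%, 12.4%, 3.85% and 16.3% in the same order. EZH2 held 4 and KDM4C 3 of the 14 ATRA+POM regions. The single-list regions were weak, with a median of 31 reads for POM, 26 for ATRA+POM and 32 for DMSO. The 5 regions called in the ATRA-labelled and DMSO lists alone (2.11%, against 3.6% at all gene loci) lie at KMT2A, KMT2C, NSD3, CREBBP and SMARCA4. With POM and ATRA+POM alone 11 were called (4.64%, against 7.37%). The part of depth in these patterns was not tested.

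**Figure D3:**
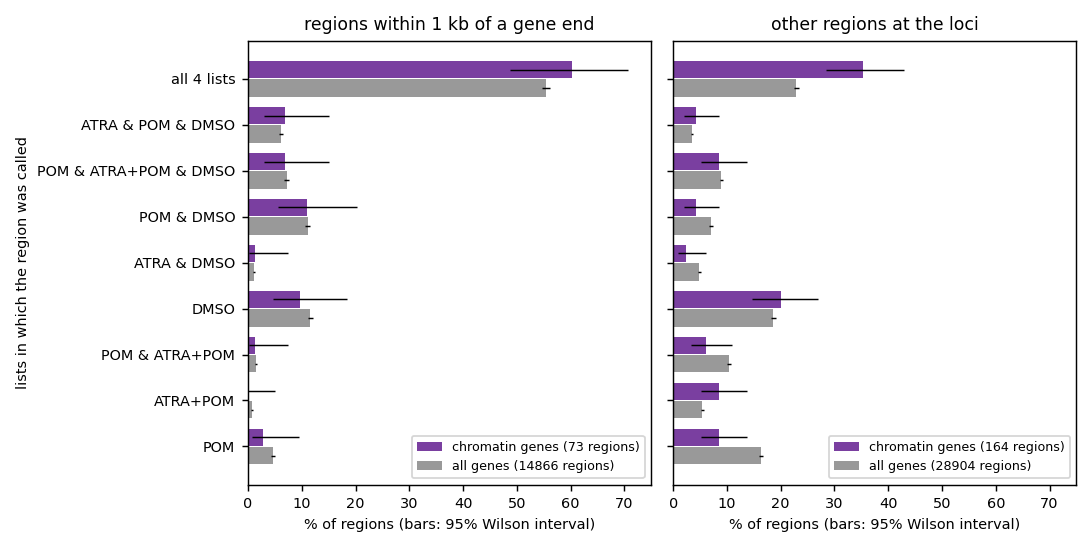
Share of merged regions called in each combination of lists, for regions within 1 kb of a gene end (left) and for other regions at the loci (right). Purple bars are the 43 chromatin genes and grey bars all genes, with 95% Wilson intervals for counting error. Away from gene ends 35.4% of the regions of the chromatin genes and 22.9% of those of all genes were called in all 4 lists. For the chromatin genes the ends are those of the member itself, and for all genes those of any gene, so these shares are not like for like.

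The 102 regions called in every list were cut into different numbers of peaks. They held 182 peaks in the list labelled ATRA, 144 with POM, 181 with ATRA+POM and 117 with DMSO, and several peaks were called in 52, 30, 47 and 15 of them. They covered 130, 181, 141 and 194 kb. Over all 19384 such regions several peaks were called in 38.2%, 18.6%, 35.1% and 10.6%, compared with 51.0%, 29.4%, 46.1% and 14.7% at the chromatin genes. At SETD1B the longest region showed this, with 9 peaks for ATRA+POM and 1 for DMSO.

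Whether a DMSO peak was also called after treatment followed its strength. Of the 26 member peaks with up to 30 summit reads with DMSO, 0 had a counterpart for ATRA, 8 for POM and 4 for ATRA+POM. Of the 46 with over 240 reads, 46, 45 and 44 had one. The exceptions among these 46 were the KMT2A peak, missing with POM and ATRA+POM, and the KMT2C peak, missing with ATRA+POM. Over all gene loci 99.9%, 98.1% and 96.2% of such strong DMSO peaks were called in the ATRA-labelled, POM and ATRA+POM lists. Between 121 and 240 reads, 46, 46 and 47 of 47 member peaks were called, against 95.2%, 92.3% and 83.5% over all gene loci.

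**Figure D4:**
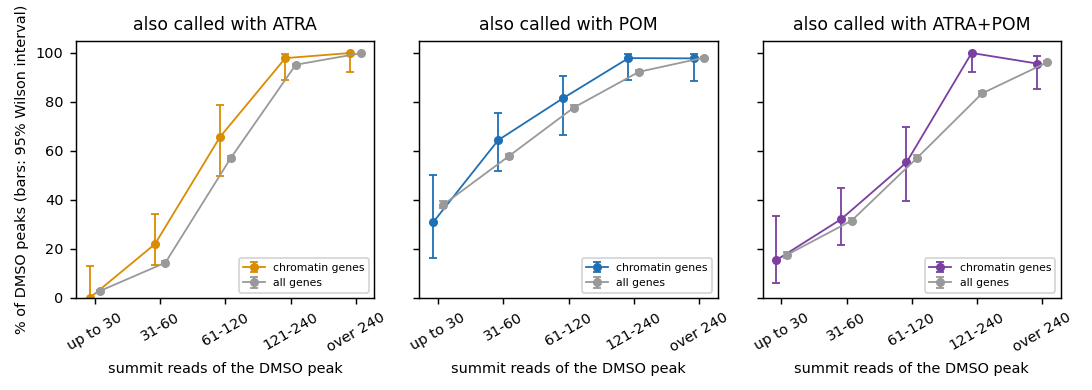
Share of DMSO peaks with a counterpart in the ATRA-labelled (left), POM (middle) and ATRA+POM (right) list, by the summit reads of the DMSO peak. Coloured points are peaks at the chromatin genes and grey points those at all gene loci, with 95% Wilson intervals for counting error. Over 240 reads 100%, 97.8% and 95.7% of the peaks at the chromatin genes were called.

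Within 100 bp of the annotated start lay 3 summits in the list labelled ATRA, 4 with POM, 0 with ATRA+POM and 3 with DMSO, out of 78, 74, 73 and 72 within 3000 bp. Between 1001 and 3000 bp downstream lay 31, 24, 29 and 21, which is 39.7%, 32.4%, 39.7% and 29.2% of the summits, against 17.9%, 16.9%, 17.8% and 15.1% over all genes. ARID1A, EZH2, EP300 and SMARCA2 are among the members whose start-side regions reach past 1 kb downstream. Where a peak lay within 1 kb of the start, it covered the start base itself at 7 of 28 members in the list labelled ATRA (25.0%), 8 of 30 with POM (26.7%), 6 of 27 with ATRA+POM (22.2%) and 15 of 32 with DMSO (46.9%). Over all genes the shares were 22.6%, 42.6%, 22.7% and 52.5%, and the difference from all genes was not tested.

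**Figure D5:**
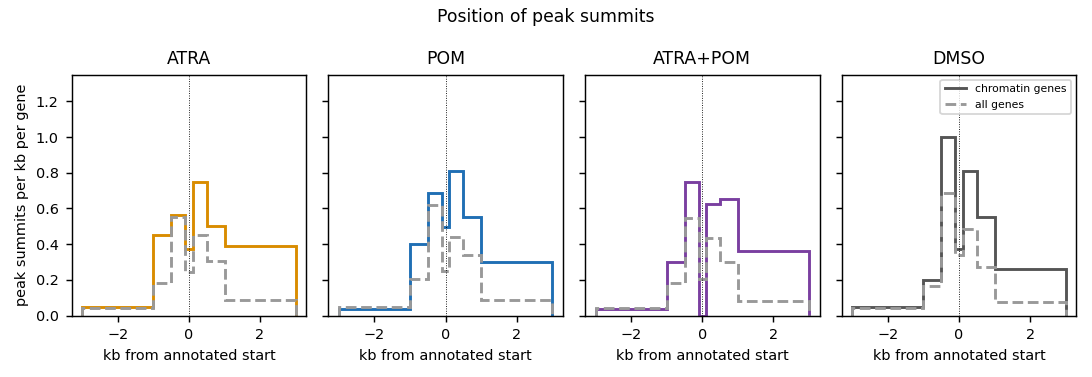
Peak summits per kb per gene by distance from the annotated start, downstream positive, one panel per list. Solid lines are the 40 chromatin genes in the promoter table and dashed lines all 15813 genes in it. From 1 to 3 kb downstream the solid line lies above the dashed line in every panel (0.388 against 0.0848 for ATRA, 0.263 against 0.0751 for DMSO). The rate is per gene, with or without a peak near the start. It therefore mixes how many genes had such a peak with where the summits lay.

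The members have long loci, with a median of 97.5 kb against 34.2 kb over all genes. Per 100 kb of locus they held 3.94 peaks in the list labelled ATRA, 4.30 with POM, 4.50 with ATRA+POM and 4.17 with DMSO, against 2.34, 3.01, 2.66 and 2.93 over all genes. At the edge of the rule, 43, 44, 49 and 38 of the peaks lay in the 5-kb flanks, and another 11, 16, 14 and 22 lay between 5 and 10 kb from a gene. The DMSO peak just inside the edge, 4843 bp from KDM2A, had 53 reads, and the one just outside, 5756 bp from the same gene, had 294. Of the member regions 31, at 13 genes, lie within 1 kb of the end of another gene.

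Among 78 other genes of the same field a gene-end peak was called at 63 in the list labelled ATRA, 70 with POM, 66 with ATRA+POM and 70 with DMSO. In all lists 63 had one (80.8%, against 37.3% of all genes). With DMSO and not in the list labelled ATRA 7 of 70 had one (18.2% over all genes). With DMSO and not with POM it was 1 of 70, CBX2 (5.93% over all genes). With DMSO and not with ATRA+POM 5 of 70 had one (17.3% over all genes), namely KMT5B, BRD7, EP400, RNF2 and CBX2. None of these counts exceeds the share over all genes. CBX2 and RNF2 are subunits of Polycomb repressive complex 1, EP400 is a remodeling ATPase, BRD7 a SWI/SNF subunit and KMT5B an H4K20 methyltransferase. KDM3A, an H3K9 demethylase, had a gene-end peak with POM and ATRA+POM and not with DMSO. It was 1 of 8 genes without one with DMSO. Over all such genes 3.79% had one with POM and 1.75% with ATRA+POM. The KDM3A locus nevertheless held 4 peaks with POM, 4 with ATRA+POM and 4 with DMSO.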

How the data were processed

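Chromatin immunoprecipitation libraries of OPM-2 cells, 1 per treatment, and their inputs make up the 8 samples, assigned to treatments from their titles. The deposited files used were 4 peak lists of 10 columns without a header, 1 per immunoprecipitated library, each assigned to a single sample. Positions are on hg38, as the submitters' processing notes state. Aligner, caller and antibody: not given in the sources used here.

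In the deposited lists the score equals 10 times the −log10 p without its decimals. The fold enrichment is the authors' ratio, read here, from the column layout and the values, as summit over local background of its own library. The −log10 p and −log10 q are the authors' values too. The summit position is the deposited offset from the peak start.

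Peaks on chromosomes 1 to 22 and X were called shared when 1 bp or more overlapped, and 95% Wilson intervals go with shares. The sequencing depth is not stated. Summit reads were inferred by inverting a Poisson p-value (1 count was added to both terms). The relative depth rests on the smallest background that recurred in 20 or more peaks, per base of the narrowest peak. Gene spans came from the RefSeq table and starts from its promoter table; exons and introns could not be read. The inference of summit reads and the overlap rules were tested on simulated data. The simulated p-values came from the same Poisson relation, so that test cannot show that the deposited lists follow it. The relative depth was not tested in this way.

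The members, the role groups and the 78 other chromatin genes were chosen with earlier results of these data known. Every member may be named. Full values went to members whose gene-end peak differed between lists, to up to 5 members per comparison with the largest rise or fall in peak number, to the 3 peaks of lowest q value without a counterpart per comparison and direction, and to the members with the most and fewest peaks per role group. Marker genes and further regions at member loci were given beside them.

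The alternatives were an equal number of 36742 strongest peaks, a fold enrichment of at least 10, windows of 3000 bp, the annotated start only, an overlap of 50% of the peak, and peaks within 500 bp as shared. Leaving out the ATRA-labelled list was added after the data were seen. Versions: matplotlib 3.10.9, pandas 2.3.3, numpy 2.4.6, Python 3.11.15 and scipy 1.17.1.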

Additional observations from a re-analysis of the deposited data

Results flagged for a closer look

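The lists also hold peaks outside the chromosomes compared above. On alternative contigs of chromosome 6, the chromosome of BRD2, there were 7 peaks in the ATRA-labelled list, 10 with POM, 9 with ATRA+POM and 16 with DMSO. They stand here because no comparison used them; none was assigned to a gene, and no control list was at hand to set them against.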

How the results depend on the processing

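No paired analysis was possible because each treatment has 1 immunoprecipitated library and its number only names it; for the same reason no library could be left out within a group. With an equal number of strongest peaks, gene-end peaks were called at 4 members with ATRA and not with ATRA+POM, at 4 with DMSO and not with POM (KMT2B, SETD1B, CREBBP and HDAC3) and at 1 with POM and not with DMSO (KDM4B). Peaks without a counterpart then numbered 3 for ATRA against DMSO, 41 for DMSO against ATRA, 31 for ATRA+POM against ATRA, 11 for ATRA+POM against POM and 33 for POM against ATRA+POM. With a fold enrichment of at least 10, gene-end peaks were called at 4 members with ATRA+POM and not with ATRA, at 1 with ATRA+POM and not with DMSO (EZH1), at 4 with DMSO and not with POM and at 3 with POM and not with DMSO (EZH1, KDM4B and KAT2A). Peaks without a counterpart then numbered 2 for ATRA against DMSO, 36 for DMSO against ATRA, 22 for DMSO against POM, 9 and 52 for ATRA+POM and DMSO against each other, 2 for ATRA+POM against POM and 20 for ATRA+POM against ATRA. With windows of 3000 bp the count was 1 for ATRA and not ATRA+POM, 1 for ATRA+POM and not POM (KDM5B), 3 for DMSO and not ATRA+POM and 2 for POM and not ATRA+POM. With the annotated start only it was 1 for ATRA+POM and not ATRA. Counts of similar size could hold different members. With a fold enrichment of at least 10, the members shared with those named in the report numbered 2 of 6 for DMSO and not ATRA, 3 of 6 for DMSO and not ATRA+POM, 1 of 4 for POM and not ATRA+POM, 1 of 2 for DMSO and not POM, 1 of 2 for ATRA+POM and not ATRA and 0 of 2 for ATRA and not ATRA+POM. KAT6B, called with DMSO and not POM, was not so called with windows of 3000 bp, with a fold of at least 10 or with an equal number of strongest peaks. With an overlap of 50% of the peak, DMSO peaks without a counterpart numbered 149 against ATRA, 73 against POM and 136 against ATRA+POM, and POM peaks 117 against ATRA+POM. With peaks within 500 bp as shared, DMSO peaks without one numbered 50, 26 and 43 against the same lists, ATRA peaks 14 and POM peaks 32 against ATRA+POM. The 50% rule is a stricter and the 500 bp rule a looser condition for a shared peak; otherwise the cause was not tested. The absence of a gained gene-end peak held under all settings for ATRA against DMSO. Of the member DMSO peaks with up to 30 reads 0 of 26 were called in the ATRA-labelled list, at an inferred 0.133 of the DMSO depth, and of those with 31 to 60 reads 13 of 59; the part of depth was not tested.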
